A study of Mus musculus with 4 samples.

Results

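The genes described here are 7 of the 48425 genes in the count table of mouse peritoneal mesothelium. They were taken by symbol: the colony-stimulating factor genes Csf1, Csf2 and Csf3, Il34, the ligand genes Kitl and Flt3l, and Csf1r, the receptor gene for Csf1 and Il34. All 7 have a row in the table, and 5 of them had at least 10 estimated counts over the 4 libraries. The samples are primary peritoneal mesothelial cells of 4 untreated C57BL/6 mice aged 10 weeks, 1 library per animal in 1 group. The cavities were rinsed and then digested with trypsin for 20 min at 37 °C, and the released cells were sorted as CD45- and positive for podoplanin and GPM6a. No undigested tissue and no other cell type was measured, so levels can be set beside each other within an animal but not against another condition.

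Mesothelium is the single cell layer on the lining of the body cavities, and the fluid it faces holds resident macrophages. Csf1 and Il34 are unrelated in sequence but both activate Csf1r, a receptor tyrosine kinase that macrophages and monocytes need to survive and divide. Kitl (stem cell factor) acts through Kit on blood progenitors, mast cells and melanocytes, and Flt3l acts through Flt3 on progenitors and dendritic cells. Csf2 (GM-CSF) and Csf3 (G-CSF) are secreted factors that stimulated tissue cells make in inflammation, for macrophages, dendritic cells and neutrophils.

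Levels are given as CPM, the gene's share of the library's estimated counts scaled to a total of 1000000. The totals ran from 4090224 to 4569578 estimated counts. A gene with 0 counts may still have a level of up to 3 counts: 0.657 to 0.733 CPM in a single library and 0.171 CPM over all 4. These limits cover counting error only. The 12 mesothelial marker genes all had levels above 1 CPM in a quasi-likelihood test of edgeR, against 24.7% of all genes, with Upk3b at 4135 ± 236 CPM (SD, n = 4). The list holds Pdpn and Gpm6a, the genes of proteins on which the cells were sorted, so their calls are not independent of the sort. Of the 10 fibroblast markers 9 passed the same test, against 24.7% of all genes. Their mean levels ran from 12889 ± 2116 CPM for Dcn down to 1.55 ± 0.860 CPM for Pi16, which did not pass. The median of the list was 178 CPM, with Pdgfra at 25.5 ± 7.56 and Dpt at 7.97 ± 6.43 CPM. Since RNA was taken from sorted cells in bulk, fewer cells of a type and less RNA per cell cannot be told apart.

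Of the 7 genes, 5 lay above 1 CPM: Csf1, Kitl, Il34, Csf1r and Flt3l. Csf2 and Csf3 did not. The test was edgeR's quasi-likelihood test, one-sided, adjusted over all 48425 genes, and 24.7% of all genes passed it. The median of the 7 mean levels was 34.4 CPM, and the median over all genes of the table was 0 CPM, since 52.6% of them had no count in any library.

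**Figure D1:**
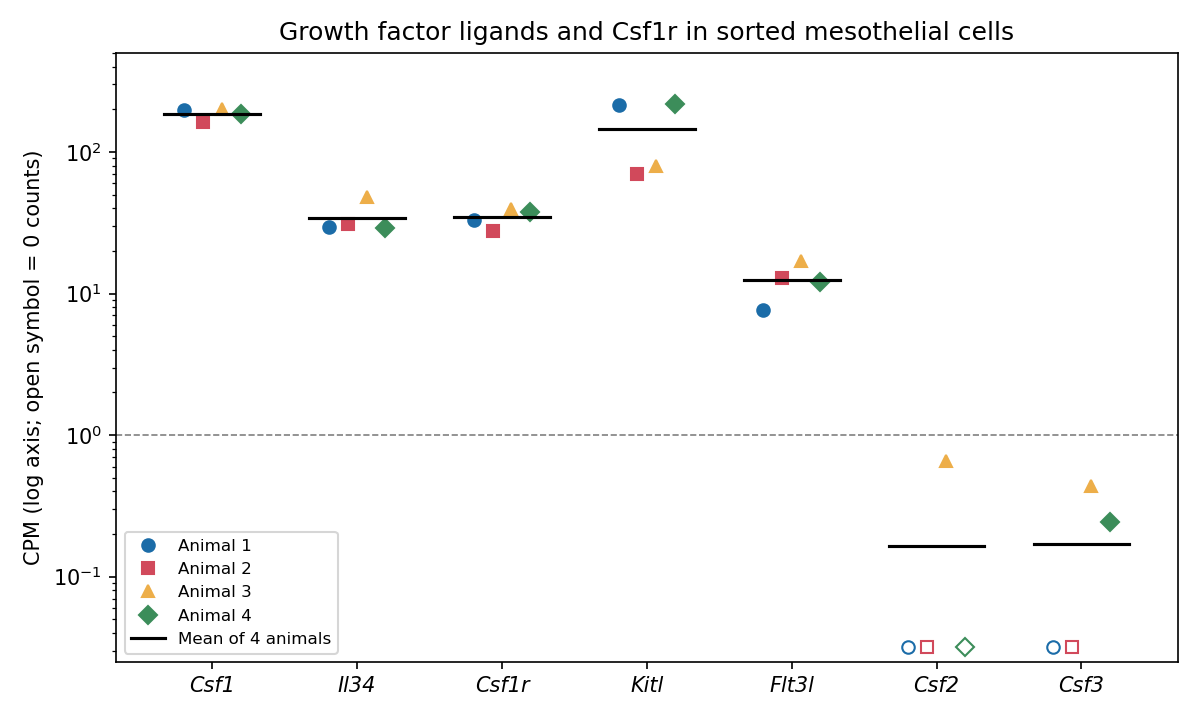
CPM of the 7 genes in each of the 4 animals on a log axis, with the mean as a bar, the 1 CPM level as a dashed line and libraries with 0 counts as open symbols at the bottom. Csf1 lies between 162 and 200.4 CPM in all 4 animals, Kitl splits into 2 animals above 200 CPM and 2 below 80 CPM, and Csf2 and Csf3 stay below 1 CPM.

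Csf1 was the steadiest of the 5. Csf1 (ENSMUSG00000014599.10; GRCm38 chromosome 3, 107741048 to 107760469, minus strand) encodes macrophage colony-stimulating factor, which is made in secreted and membrane-bound forms. It had 198, 162, 200.4 and 186 CPM in animals 1 to 4, a mean of 187 ± 17.5 CPM. Animal 2 was the lowest and the other 3 lay close together. The coefficient of variation was 9.36%, where counting error alone would give 3.49%, and 9.77% of the 8792 genes with a mean of at least 10 CPM varied less. By mean CPM, Csf1 stood at rank 890 of 48425 genes.

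Il34, the gene of the second Csf1r ligand (ENSMUSG00000031750.15; chromosome 8, 110741829 to 110805924, minus strand), is best known as a product of neurons and keratinocytes. It had 29.4, 30.8, 48.1 and 29.1 CPM in animals 1 to 4, a mean of 34.4 ± 9.20 CPM. Animal 3 stood above the other 3, which lay within 2 CPM of each other. Without animal 3 the mean was 29.8 ± 0.905 CPM (n = 3). Il34 shares 75 bases with Gm15895 on the opposite strand, a gene with 0.982 ± 0.794 CPM.

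Kitl differed most between animals. Kitl (ENSMUSG00000019966.18; chromosome 10, 100015630 to 100100416, plus strand) encodes a membrane protein from which a soluble form is released. It had 215 CPM in animal 1, 70.4 in animal 2, 79.3 in animal 3 and 218 in animal 4. Animals 1 and 4 thus lay near each other, as did animals 2 and 3, with no animal in between. The highest level was 3.10 times the lowest. The mean of 146 ± 81.8 CPM therefore describes none of the 4 animals. The coefficient of variation was 56.2% against 3.97% from counting alone, and 94.4% of genes with at least 10 CPM varied less.

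The libraries as a whole showed the same division, but only slightly. The first principal component of the log2 values of 12103 genes held 44.2% of the variance, and its loadings were 0.62, -0.54, -0.44 and 0.36 for animals 1 to 4. With 4 libraries there are few components, so the first holds a large share in any case. Pearson correlations of the same values were 0.929 for animals 1 and 4 and 0.917 for animals 2 and 3. The other pairs of animals had 0.896 to 0.912. Some marker genes divided the animals in the same way and others did not. The summed level of the 10 fibroblast markers, most of it Dcn, was 15329, 22446, 19964 and 15181 CPM in animals 1 to 4, low where Kitl was high. In the same list Col14a1 had 301, 149, 286 and 388 CPM and Thy1 had 31.2, 10.5, 30.4 and 33.8 CPM, both lowest in animal 2. The keratin Krt19 had 1749, 3120, 3091 and 1239 CPM, whereas the summed level of the 12 mesothelial markers was 16124, 17394, 15448 and 15939 CPM. The part of these differences in the Kitl level was not tested. Endothelial cells are another source of Kitl. In the list of 8 endothelial markers 3 passed the 1 CPM test, against 24.7% of all genes, namely Esam at 359 ± 12.4 CPM, Kdr at 49.2 ± 14.1 CPM and Tek at 2.64 ± 3.47 CPM. The Tek call rested on animal 4 and was lost without it (adjusted p = 1 by edgeR). Cdh5 and Emcn had no count in any animal and Pecam1 had 17 counts in all. The summed level of the list was 423, 425, 388 and 414 CPM in animals 1 to 4. Most of it was Esam, at 377, 355, 352 and 351 CPM, followed by Kdr at 41.0, 66.3, 34.8 and 54.9 CPM. The part of endothelial RNA in the Kitl level was not tested.

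Flt3l was the lowest of the 5 by CPM. Flt3l (ENSMUSG00000110206.1; chromosome 7, 45129788 to 45136432, minus strand) encodes a growth factor for dendritic cell precursors. It had 7.70, 12.8, 17.0 and 12.1 CPM in animals 1 to 4, a mean of 12.4 ± 3.82 CPM from 219 counts in all. Animal 1 was lowest and animal 3 highest. The coefficient of variation of 30.7% stood beside 13.5% from counting alone. Of its 13 annotated transcripts 11 share up to 858 bases with Gm45713, an overlapping protein-coding gene on the same strand. Gm45713 was listed with 0, 0, 0.856 and 0 CPM in animals 1 to 4. The sources used here do not say how reads were split between them.

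Csf2 and Csf3 were at the limit of detection. Csf2 (ENSMUSG00000018916.5; chromosome 11, 54247271 to 54249667) had 3 counts, all in animal 3, which is 0.657 CPM there. Its 1 annotated transcript shares 102 bases at 99.02% identity with Gm12223 on the opposite strand. The sources used here do not say whether the libraries kept strand, so the origin of these counts is uncertain. Csf3 (ENSMUSG00000038067.2; chromosome 11, 98701263 to 98703629) had 2 counts in animal 3 and 1 in animal 4, or 0.438 and 0.243 CPM. Animals 1 and 2 had no count of either gene. The adjusted p of edgeR's quasi-likelihood test against 1 CPM was 1 for both. In animals 1 and 2, 0 counts allow a level of up to 0.657 and 0.686 CPM of each gene.

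Levels of different genes were compared after division by length, as CPM per kb of the mean protein-coding transcript. On that scale Csf1 stood at 95.2 ± 8.91, Kitl at 71.5 ± 40.2, Il34 at 19.6 ± 5.25, Flt3l at 14.7 ± 4.52 and Csf1r at 14.1 ± 2.14 CPM per kb. Differences within each animal were tested by limma in fits across 14683 genes, adjusted over the genes of each fit. In each fit the values of a single growth factor or receptor gene were subtracted from those of every other gene. The variances that limma pooled across genes were therefore not independent, and its adjusted p can understate the spread between animals. Of the 10 pairs, 6 differed at an adjusted p under 0.05. Calls were frequent in these fits. Of the 14683 genes in a fit, 88.9% were lower than Csf1, 78.1% lower than Kitl, 20.2% higher than Il34 and 25.5% higher than Csf1r. Each call is therefore a statement on its pair and not on the group.

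Of the pair of Csf1r ligands, Csf1 was higher than Il34 per length in 4 of 4 animals. The log2 difference was 2.29 (SE 0.194, adjusted p = 4.48e-05 by limma), a ratio of 4.89. It shrank to 1.23 with the longest transcript as length and to 1.02 with the union of exons (adjusted p = 0.000994 and 0.00247 by limma). Csf1 was also higher than Flt3l in 4 of 4 animals, with a log2 difference of 2.69 (limma, SE 0.237, adjusted p = 5.38e-05), which was 3.46 with the union of exons. Against its own receptor gene the Csf1 difference was 2.74 (SE 0.167, adjusted p = 1.13e-05 by limma), and it was the most even of the 10, with an SD of 0.14 over the animals. Exact sign-flip permutation over 4 animals cannot go below p = 0.13, which each of these 3 pairs reached.

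Csf1 and Kitl, the neighbours at the top of the order, were not distinguishable by the mean coding length. The log2 difference was 0.60 with a 95% interval of -0.24 to 1.44 (adjusted p = 0.134 by limma), and Csf1 was higher in 2 of 4 animals. With the longest transcript as length it was 0.98 and passed (adjusted p = 0.0313 by limma). Before division by length the ratio of Csf1 to Kitl was 0.923, 2.31, 2.53 and 0.851 in animals 1 to 4, so the order turned with the Kitl level. Kitl exceeded Flt3l by 2.09 (SE 0.589, adjusted p = 0.000558 by limma; 2.75 with the union of exons) and Csf1r by 2.14 (SE 0.341, adjusted p = 0.000921 by limma), in 4 of 4 animals each. The SD over the animals was 1.25 against Flt3l and 0.84 against Csf1r, a spread that these adjusted p can understate.

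Kitl exceeded Il34 in 4 of 4 animals by 1.69 on the log2 scale. Il34 minus Kitl was thus -1.69 (SE 0.409, adjusted p = 0.00394 by limma). Its SD over the 4 animals was 1.12, and the SE drew on variances pooled across genes. This adjusted p can therefore understate the spread between animals. With the longest transcript as length Il34 minus Kitl shrank to -0.25 (adjusted p = 0.57 by limma). The reason is that Kitl has an annotated transcript of 5648 bases beside a coding mean of 2037, whereas the longest of Il34 is 1796. The lower neighbours did not separate by the mean coding length. Il34 minus Flt3l was 0.40 (95% interval -0.18 to 0.97), Il34 minus Csf1r 0.45 (-0.12 to 1.03) and Csf1r minus Flt3l -0.05 (-0.63 to 0.52). With longest transcripts Il34 was higher than Csf1r by 1.36 and than Flt3l by 1.92, both past the limma threshold, and with the union of exons Csf1r was higher than Flt3l by 0.90 (adjusted p = 0.0113 by limma).

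**Figure D2:**
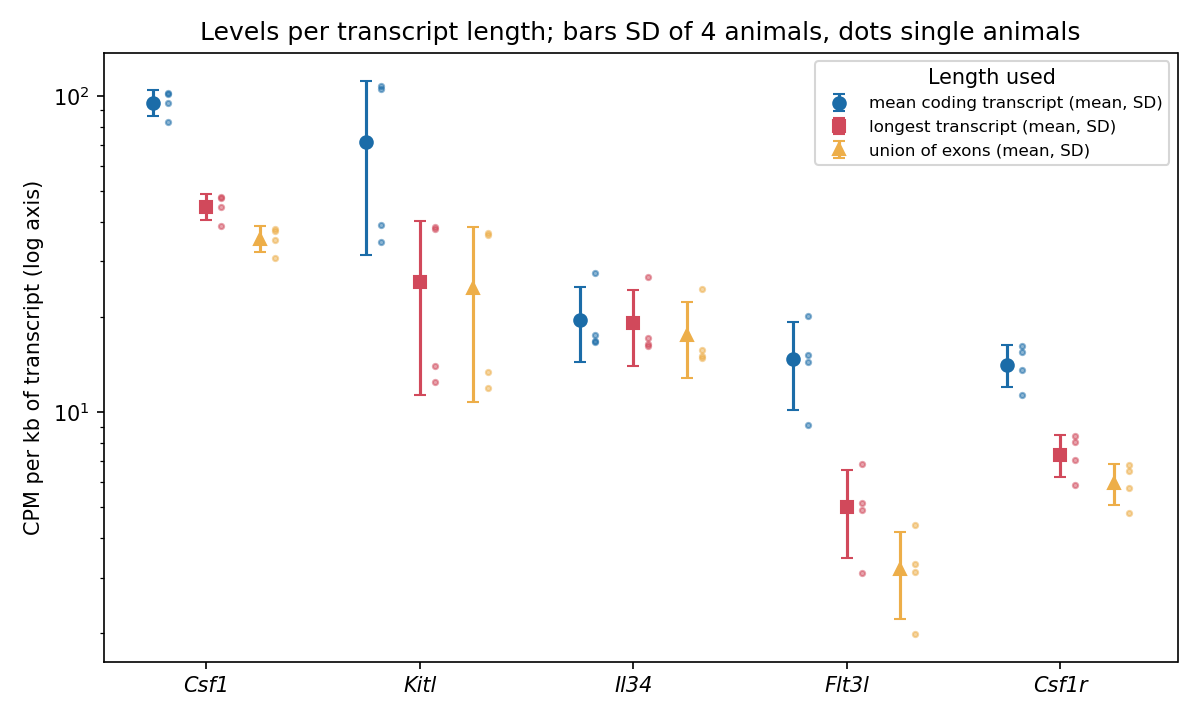
CPM per kb of transcript on a log axis for the 5 detected genes, with 3 definitions of length in separate colours; large symbols are means, bars the SD of 4 animals and dots single animals. Csf1 has the highest mean under each definition, 95.2, 44.7 and 35.3 CPM per kb, and the order of Flt3l and Csf1r turns with the definition.

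The genes closest to Csf1 in level over the 4 animals were Syf2, Mrpl20 and Socs3. Their root mean square differences from Csf1 in log2 CPM per kb were 0.05, 0.06 and 0.07, among 14684 genes. Syf2 encodes a splicing factor, Mrpl20 a mitochondrial ribosomal protein and Socs3 an inhibitor of cytokine receptor signalling. The measure compares levels in 4 samples only.

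The receptors of these ligands were measured in the same cells. Of 8 receptor genes other than Csf1r, 3 passed the 1 CPM test, against 24.7% of all genes. Kit had no count in any animal and Flt3 had 1, so the sorted cells held Kitl and Flt3l RNA beside at most 1 count of either receptor. Csf3r had no count. Csf2ra, the ligand-binding chain of the GM-CSF receptor, had 10.1, 10.3, 18.8 and 16.4 CPM in animals 1 to 4 and passed, while the signalling chain Csf2rb had 1 count and its near copy Csf2rb2 had 3. Reads can be shared between Csf2rb and Csf2rb2.

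Other binding partners of Il34 were present. The receptor phosphatase gene Ptprz1 had 30.2, 6.09, 24.9 and 30.4 CPM in animals 1 to 4, lowest in animal 2. The syndecan gene Sdc1 had 20.1, 44.4, 21.0 and 19.2 CPM and was highest in animal 2. Both passed the 1 CPM test.

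**Figure D3:**
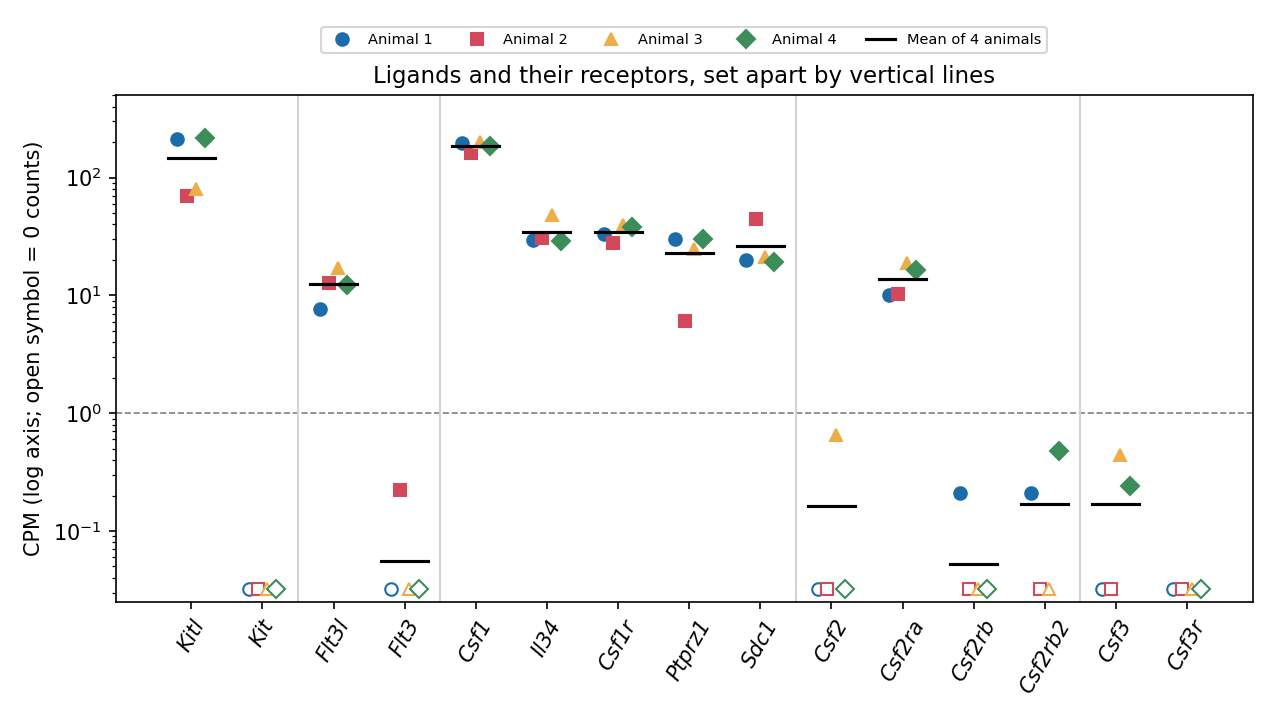
CPM on a log axis of each ligand beside its receptors in the 4 animals, with vertical lines between the ligand systems, bars for means and open symbols at the bottom for 0 counts. Kitl and Flt3l lie above 1 CPM in all 4 animals while Kit is at 0 counts and Flt3 has 1 count; Csf2ra lies above 10 CPM while Csf2rb has 1 count.

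Csf1r was the one receptor gene of a myeloid growth factor in the chosen set, and it passed. Csf1r (ENSMUSG00000024621.16; chromosome 18, 61100598 to 61132149, plus strand) had 33.2, 27.7, 39.4 and 37.7 CPM in animals 1 to 4, a mean of 34.5 ± 5.22 CPM from 607 counts. All 4 animals lay well above 1 CPM, with animal 2 lowest. The coefficient of variation was 15.1% against 8.12% from counting.

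Csf1r is best known from macrophages and monocytes. Of 20 markers of these cells 3 passed, against 24.7% of all genes, namely Cd14 at 52.5 ± 13.1, Mertk at 15.2 ± 5.93 and Cd68 at 12.5 ± 5.23 CPM. Itgam, Timd4 and Aif1 had no count, and Adgre1, Fcgr1, Spi1, Tyrobp, Fcer1g and Cx3cr1 had 1 each. The summed level of all 20 was 79.4 to 93.0 CPM. Without the 3 that passed it was 15.2, 6.07, 2.02 and 1.81 CPM in animals 1 to 4. None of those 17 passed by edgeR (limma with voom weights passed 0 as well, and edgeR without adjustment 1 at p under 0.05).

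The macrophage markers differed in the animal where they were highest. Ptprc, the gene of CD45, had 3.05, 0, 0.187 and 0 CPM, and the lysozyme gene Lyz2 had 5.73, 1.58, 0.868 and 0.722 CPM in animals 1 to 4. Cd68 had 7.32, 10.8, 19.7 and 12.1 CPM and Mertk had 11.4, 12.0, 24.0 and 13.2 CPM, both highest in animal 3. Cd14, the highest of the 20 markers by mean, had 58.3, 50.5, 35.4 and 65.9 CPM, lowest in animal 3 and highest in animal 4. Csf1r had a mean of 34.95 ± 6.30 CPM (n = 3) without animal 1 and 32.9 ± 4.99 CPM (n = 3) without animal 3. The part of macrophage RNA in the Csf1r level was not tested. Zbtb46 alone passed of 8 dendritic cell markers, at 12.6 ± 6.20 CPM, against 24.7% of all genes. Clec9a and Cd209a had no count. None of 8 mast cell markers passed by edgeR, against 24.7% of all genes, and 6 had no count. For these 8 markers limma with voom weights passed 0 as well, and edgeR without adjustment 0 at p under 0.05. The highest of them by mean, Ms4a2, had 4.00, 0, 1.20 and 3.26 CPM in animals 1 to 4, from 37 counts in all. Without animal 2 it passed (adjusted p = 0.0362 by edgeR).

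Part of Csf1r overlaps another gene. The 3′ end of 1 of its 6 annotated transcripts shares 873 bases with the convergent gene Hmgxb3 on the opposite strand. Hmgxb3 was listed at 4.78, 3.50, 5.25 and 4.03 CPM in animals 1 to 4, and the ratio of Csf1r to Hmgxb3 was 6.93, 7.92, 7.50 and 9.36. The sources used here do not say whether the libraries kept strand. Without strand, reads from the shared stretch cannot be told apart, so the share of the Csf1r counts that came from Csf1r RNA is uncertain.

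**Figure D4:**
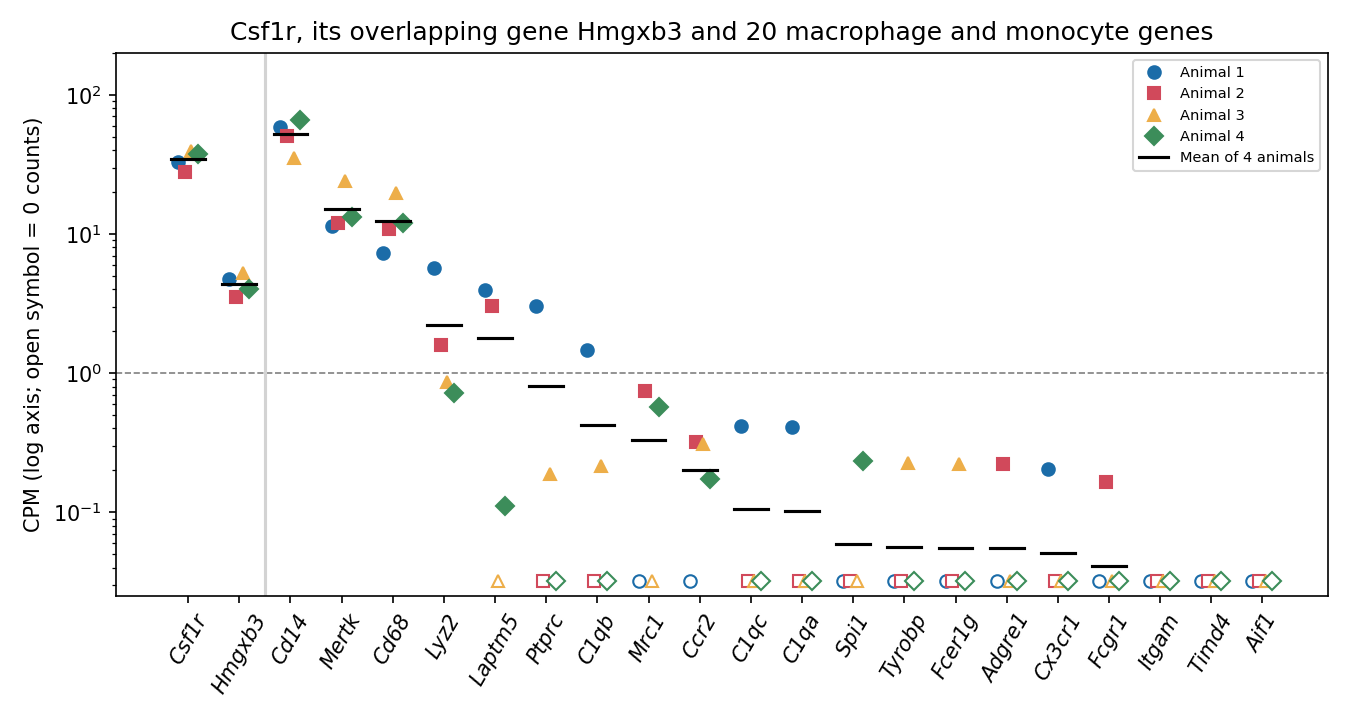
CPM on a log axis of Csf1r, the overlapping gene Hmgxb3 and 20 macrophage and monocyte markers in the 4 animals, ordered by mean, with bars for means and open symbols at the bottom for 0 counts. Csf1r lies between 27.7 and 39.4 CPM, and 17 of the 20 markers lie below a mean of 3 CPM.

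Of 10 genes listed for Csf1r signalling, 6 passed the 1 CPM test, against 24.7% of all genes. They included the phosphoinositide 3-kinase subunit Pik3r1 at 42.5 ± 20.8 CPM, the adaptor Grb2 at 26.6 ± 3.23 and the transcription factor Ets2 at 20.9 ± 3.54 CPM. The kinase Src at 13.4 ± 5.59 and the ubiquitin ligase Cbl at 9.56 ± 4.33 CPM also passed, beside Sos1. The 4 that did not pass are best known from blood cells. The phosphatase gene Inpp5d, the adaptor gene Tyrobp and the transcription factor gene Spi1 had 1 count each, and Plcg2 had 2.24 ± 1.67 CPM.

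Csf1, Kitl and Flt3l are made as membrane proteins and released by proteases. Of 5 genes of that machinery 4 passed, against 24.7% of all genes. Adam10 had 128 ± 28.2 CPM and Adam17, which cleaves membrane-bound Csf1 and Kitl, had 45.2 ± 4.19 CPM. The genes of the Adam17 partners iRhom1 and iRhom2, Rhbdf1 and Rhbdf2, had 37.2 ± 6.28 and 7.85 ± 4.09 CPM. Mmp9, a protease of neutrophils and macrophages, had 1 count.

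Of 10 other cytokine genes with effects on blood cells 2 passed, close to the 24.7% of all genes: Tnfsf13b (the B cell factor BAFF) at 41.9 ± 14.6 CPM and Thpo (thrombopoietin) at 11.2 ± 4.91 CPM. Lif and Il11 had 2.13 ± 0.935 and 1.92 ± 2.15 CPM and did not pass, and Il6 had 1.17 ± 0.266 CPM. Il3, Osm, Epo and Tnfsf11 had no count. Over the 4 lists of receptors, signalling genes, proteases and other cytokines, 15 of 33 genes passed, against 24.7% of all genes. Their median mean level was 2.13 CPM, beside 0 CPM over all genes of the table.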

How the data were processed

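RNA of sorted mesothelial cells from 4 mice was sequenced after ribosomal RNA depletion, per the labels' protocols. The authors deposited 1 table of estimated counts per gene symbol, with 1 column per animal; the unit was read from the values, which are not whole. Per the submitters' processing notes the mouse build was GRCm38.p5 and the tools were limma 3.38.3, edgeR 3.24.3 and kallisto 0.43.1, without the role of any. CPM were computed from the deposited counts over column sums. For the tests, counts were rounded. The level test used edgeR 4.0.16 (R 4.3.3) with an intercept-only design, its F statistic taken from fitted and null deviances. It was also run on simulated data in which all genes had the same dispersion, and the outcome is not given here. Pair differences used limma 3.58.1 on log2 of (CPM + 0.5) per kb, over genes with at least 10 counts and a transcript length in GENCODE M21 (98.3% of all symbols had one), a GRCm38 annotation that also gave positions. In each pair the earlier of Csf1, Il34, Csf1r, Kitl and Flt3l was the reference of the fit. Shared sequence was searched among transcripts with BLAST 2.17.0 at 95% identity or more. DESeq2 1.42.0 size factors and TMM were alternatives. Depth was 4090224 to 4569578 counts per library, and all 4 libraries were kept.

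The 7 genes and the gene lists were chosen with earlier results of these data known. Besides the 7, genes were named as the highest or passing members of each list, as defining leukocyte genes, as overlapping genes, and as the 3 nearest to Csf1 in level. Other genes at or near 0 counts, Krt19, Tek, Pdgfra, Dpt and Pi16 were named after their values were seen. The genes of the overlaps (Hmgxb3, Gm45713, Gm15895, Gm12223) were added after the annotation was read. No protein sequences were used here.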

Additional observations from a re-analysis of the deposited data

Results flagged for a closer look

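Among 57 genes of the lists with a mean of at least 1 CPM, 6 had 1 animal far from the other 3, with a ratio of gap to range above Dixon's 95% critical value for 4 samples. Chance flags about 1 in 20 such groups. Of the growth factor genes only Il34 was among them, at 48.1 CPM in animal 3 against 29.1 to 30.8 CPM in the others. Its binding partner gene Sdc1 had 44.4 CPM in animal 2 against 19.2 to 21.0 CPM. Mertk, a macrophage marker above 1 CPM in all 4 animals, had 23.98 CPM in animal 3 against 11.4 to 13.2 CPM. Of the fibroblast and endothelial markers, Thy1 had 10.5 CPM in animal 2 against 30.4 to 33.8 CPM, Tek 7.80 CPM in animal 4 against 0.579 to 1.57 CPM, and Esam 377 CPM in animal 1 against 351 to 355 CPM. Kitl was not among them, since its 4 values form a higher and a lower pair.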

How the results depend on the processing

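The same 5 of the 7 genes lay above 1 CPM with TMM, DESeq2 size factors, a filter of at least 10 counts, limma with voom weights, and without each animal in turn. Mean levels of the 7 genes moved by less than 1 SD in all of these scalings and omissions. The pairs called by limma were 6 of 10 by the mean coding length, 8 with longest transcripts, 8 with union of exons and 8 with no division by length, and 6 in every omission of an animal, with other pseudocounts, with TMM and over all rows. By exact sign-flip permutation 0 of 10 were called, since 4 animals cannot reach the threshold. The length used changed calls of the lower pairs. Csf1r minus Flt3l turned from -0.05 to 0.90 with union of exons and 1.48 with no division by length (adjusted p = 0.0113 and 0.00109 by limma). Il34 minus Kitl was -0.31 with union of exons, no longer called, and Csf1 minus Kitl became 0.98 with longest transcripts (adjusted p = 0.0313 by limma). Among the list genes, Lif, Lyz2 and Plcg2 passed with the filter (adjusted p = 0.0288, 0.0455 and 0.049 by edgeR), Plcg2 also without animal 1 and Ms4a2 without animal 2, and Tek was lost with voom weights (adjusted p = 0.683 by limma) and without animal 4. Depth limits Csf2, Csf3 and the receptor genes with 0 to 3 counts. No replicate block could be fitted because the series has 1 group.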
